A study of Bos taurus with 252 samples.

Results

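Cullins, SKP1, RBX1 and the F-box proteins were followed in the whole blood of 42 steers over 56 days. The members were the rows whose symbol begins FBXO, FBXL or FBXW followed by a number, or CUL followed by a number, together with SKP1, SKP2, RBX1 and BTRC. A CPM (the count scaled to a fixed library total, counts-per-million) above 0.2 in at least 12 libraries was also required. Of 33282 rows, 73 had such a symbol and 70 of these passed the CPM minimum. They comprised SKP1 and RBX1 (2 genes), 8 cullins, 17 FBXL genes including SKP2, 34 FBXO genes and 9 FBXW genes including BTRC. The minimum was met in every library by 57 of the 70. The CPM minimum was also met by FBXL7 in 17 libraries and by FBXL21 in 18, and these were the members nearest to being left out. FBXL22 was above it in 5 libraries, with a highest CPM of 0.359, and FBXL13 and FBXO43 in 0 libraries, so these 3 were not tested.

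Cullin-RING ligases attach ubiquitin to proteins and thereby mark many of them for the proteasome. In the SCF type, the cullin CUL1 is the scaffold, RBX1 brings in the ubiquitin-conjugating enzyme, and SKP1 holds an exchangeable F-box protein that recognises the substrate. F-box proteins are sorted by the part that meets the substrate, with WD40 repeats in the FBXW genes, leucine-rich repeats in the FBXL genes and other or no known domains in the FBXO genes. In leukocytes the system is known for controlling the cell cycle, NF-kappa B signalling and the lifetime of short-lived regulators such as MYC and MCL1.

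The 42 healthy crossbred steers formed 7 groups of 6, namely untreated negative controls (NC) and groups given 1 antimicrobial each as metaphylaxis against bovine respiratory disease. The agents were the cephalosporin ceftiofur (CEFT), the fluoroquinolone enrofloxacin (ENRO), the phenicol florfenicol (FLOR), the tetracycline oxytetracycline (OXYT) and the macrolides tildipirosin (TILD) and tulathromycin (TULA). Blood was drawn into RNA-stabilising tubes on day 0, before administration, and on 5 later days (3, 7, 14, 21 and 56). All 42 had earlier received tildipirosin, vaccines, dewormers and a hormonal growth implant during backgrounding, NC included. The groups were penned separately, and after day 0 they were sampled in a fixed order that began with NC and ended with OXYT. Each treatment had a single pen, so pen and sampling order cannot be told apart from treatment in any comparison with NC, ENRO and FLOR included.

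Library totals lay between 26073640 and 74110289 counts, with a median of 43608836. Hemoglobin genes took between 0.00402% and 25.5% of a library, with a median of 0.900%. NC and ENRO were sequenced on lane 1, TULA on lane 2, CEFT and OXYT on lane 3, and FLOR and TILD were divided between lanes, so that lane and treatment cannot be told apart for CEFT, OXYT, TULA and TILD against NC. Levels below are CPM after TMM scaling and are not corrected for transcript length, so they are compared between libraries for a gene and never between genes. Each group comparison is between separate animals.

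Sampling day was examined first, over all 42 steers. By edgeR's quasi-likelihood F test with the steer as a block, 62 of 70 members changed over the 6 days at a false discovery rate (FDR) of 0.05, against 81% of all 19056 genes tested. The 8 that did not pass were FBXL5, FBXL7, FBXO7, FBXO10, FBXO16, FBXO22, FBXO42 and FBXW9. Those that passed include FBXO40 (FDR 4.5e-04), which had 0 counts in 218 libraries. They also include FBXL16 (FDR 0.0015), whose highest library on day 14 had 24.2 CPM beside a median of 1.07 that day. On day 3, 17 members were higher and 20 lower than on day 0, where 22.1% and 19.2% of all genes were. On day 7 the counts were 17 higher and 15 lower, against 25.3% and 20.6% of all genes.

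Of the steps between successive sampling days, that from day 7 to day 14 had the most calls. In that interval 24 members rose and 25 fell, beside 26.1% and 23.1% of all genes. From day 3 to day 7 only 4 rose and 3 fell, when 21.4% of all genes changed in either direction. Thereafter 4 rose and 5 fell from day 14 to day 21, against 13% of all genes, and 6 rose and 2 fell from day 21 to day 56, against 7.16%. Relative to day 0 the counts were 28 higher and 27 lower on day 14, against 34.2% and 30.9% of all genes, and 29 higher and 26 lower on day 21, against 34.1% and 32.5%. On day 56, 30 members were higher and 25 lower, against 33.9% and 31.8%. The median log2 fold change on day 56 was 0.086 for the 70 members and 0.017 for all genes tested.

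**Figure D1:**
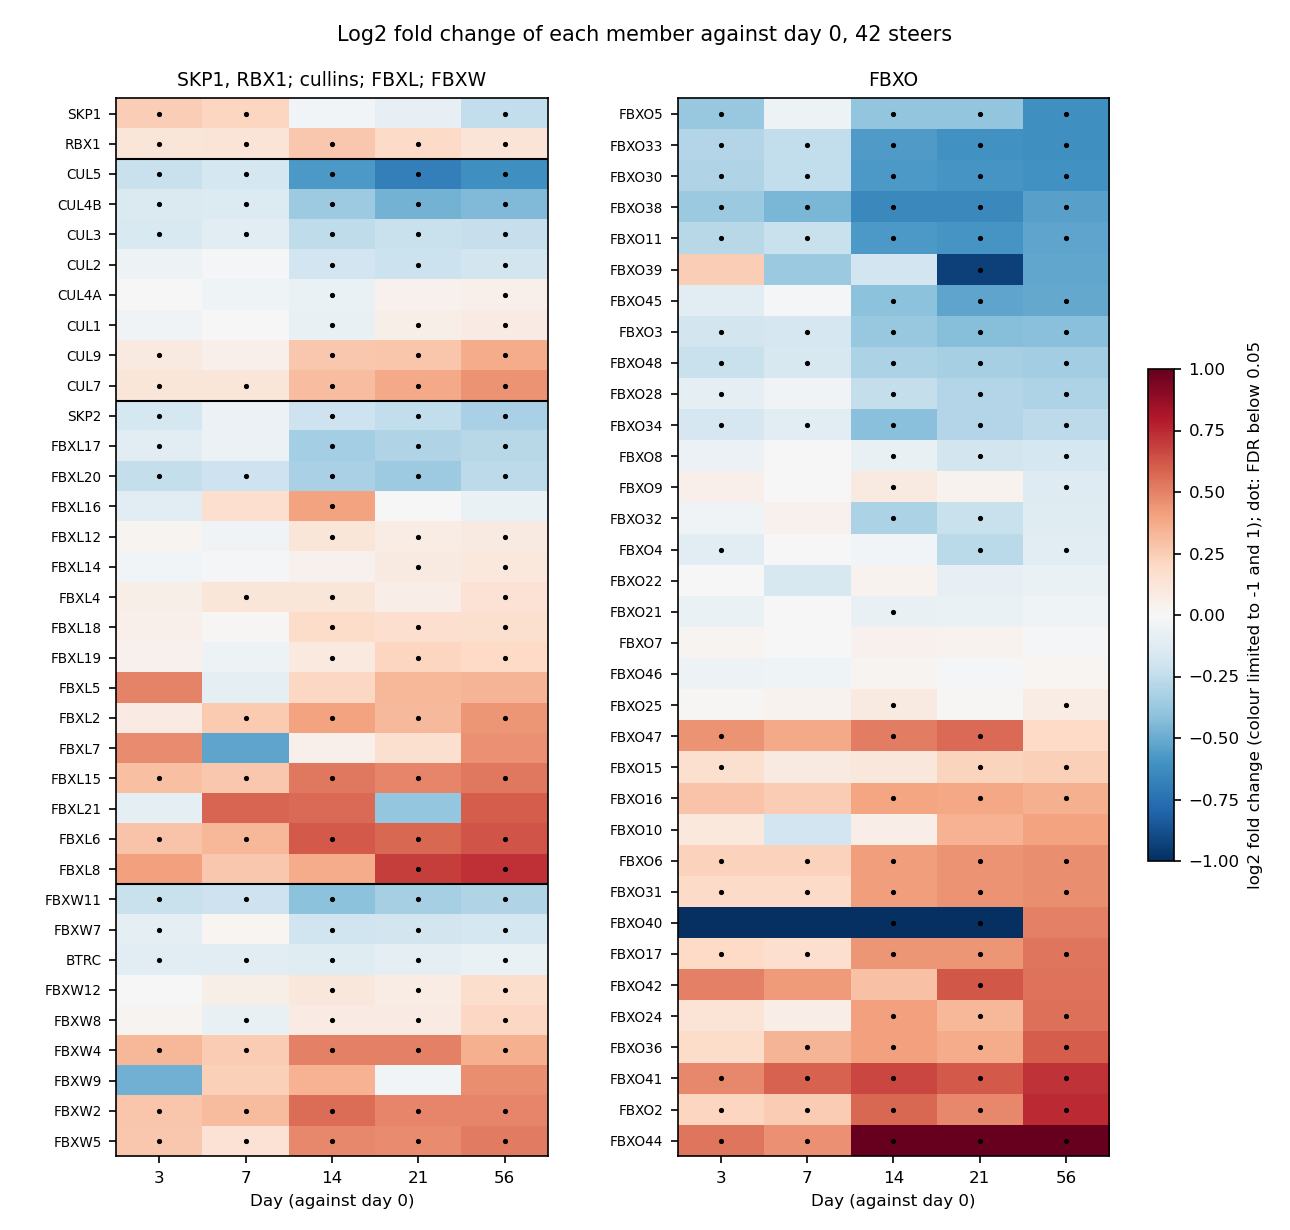
Log2 fold change against day 0 of 69 of the 70 members (rows, by family) on the 5 later days (columns) from the fit of 42 steers, with colour limited to -1 and 1 and a dot where the FDR was below 0.05. Members that were higher and members that were lower on day 56 are found in all families, and most of the colour appears from day 14 onward.

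The adaptor and the RING subunit took different courses. SKP1 ranged from 102 to 411 CPM over the 42 steers on day 0, with a median of 175. On day 3 it ranged from 100.4 to 511 with a median of 215, and on day 56 from 92.6 to 239 with a median of 153. SKP1 was thus above day 0 on day 3 (log2 fold change 0.25 ± 0.071 SE, FDR 0.0023, higher in 30 of 42 steers) and below it on day 56 (-0.25 ± 0.071, FDR 0.0012, lower in 28 of 42), with wide overlap between days. Of the 70 members, 1 (SKP1) rose on day 3 and fell on day 56 by the same test. On day 56 the 6 NC steers alone had a log2 fold change of 0.19 (FDR 0.404), the other 6 groups were below 0, and the lowest group was at -0.44.

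RBX1 ranged from 80.2 to 112 CPM on day 0 with a median of 91.2, and from 90.6 to 149.7 on day 14 with a median of 108. It was higher than on day 0 on every later day, with log2 fold changes of 0.27 ± 0.027 on day 14 (FDR 1.36e-18) and 0.13 ± 0.027 on day 56 (FDR 6.74e-06, higher in 35 of 42 steers).

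The 8 cullins divided evenly on day 56, 4 higher and 4 lower. The largest fall was in CUL5, the scaffold for receptors with a SOCS box. CUL5 went from 11.8, 22.3 and 34.1 CPM (lowest, median and highest of 42 steers) on day 0 to 4.95, 15.7 and 27.2 on day 56, a log2 fold change of -0.61 ± 0.067 (FDR 3.2e-16) with 40 of 42 steers lower. CUL4B, a scaffold that works through DDB1, went from 34.3, 51.3 and 115 CPM to 20.3, 40.4 and 66 (-0.44 ± 0.055, FDR 4.33e-13, lower in 36 of 42). CUL3, which binds BTB-domain receptors such as KEAP1, went from 67.7, 82.1 and 99.1 to 49.8, 72.2 and 80.4 (-0.23 ± 0.029, FDR 2.0e-13, lower in 38 of 42). The fourth was CUL2, the scaffold of the VHL ligase, which fell from a median of 21.4 to 19.1 (-0.18 ± 0.032, FDR 9.94e-08, lower in 33 of 42). These 4 were lower in each of the 7 groups.

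CUL7 and CUL9 rose. CUL7, which pairs with FBXW8, had 124.5, 155 and 215 CPM (lowest, median and highest) on day 0 and 165, 214 and 249 on day 56. The log2 fold change was 0.45 ± 0.029 (FDR 7.71e-35), all 42 steers were higher, and the median moved upward from day 0 to day 3 and again on days 14, 21 and 56. CUL9, a large cullin found in the cytoplasm, had 65.7, 83.6 and 116 CPM on day 0 and 83.5, 109.7 and 133 on day 56 (0.37 ± 0.035, FDR 2.51e-20, higher in 37 of 42). CUL1, the SCF scaffold, moved little, from a median of 53.5 to 57 CPM (0.08 ± 0.021, FDR 3.44e-04, higher in 32 of 42), and was lower than day 0 on day 14 by a log2 fold change of -0.07. CUL4A was at the threshold (0.05, FDR 0.0499) and was not past it with RLE scaling (FDR 0.118) or without a scaling factor (FDR 0.812).

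**Figure D2:**
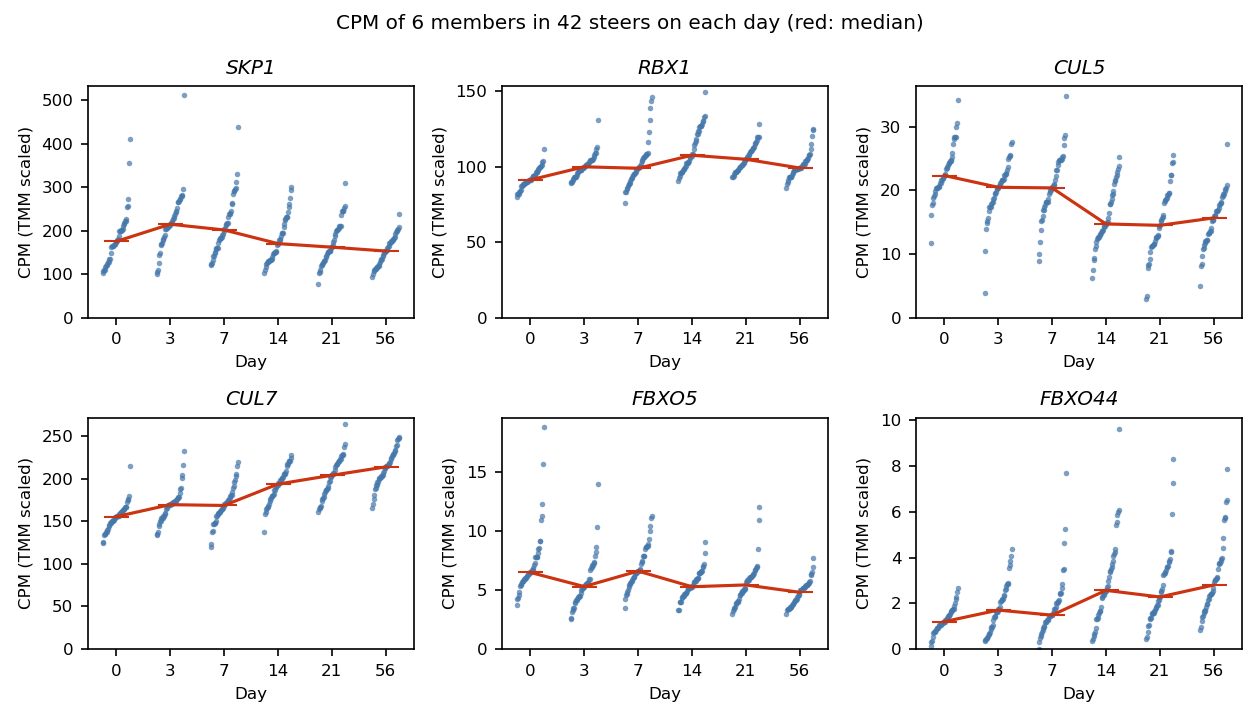
CPM (TMM scaled, linear axis) of SKP1, RBX1, CUL5, CUL7, FBXO5 and FBXO44 in each of 42 steers on each of the 6 days, with points in ascending order within a day and the red line through the medians. The median of SKP1 peaks at 215 on day 3, that of CUL5 drops between days 7 and 14, and that of CUL7 reaches 214 on day 56, with overlap between days in all 6 panels.

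Among the 9 FBXW genes, 5 were higher and 3 lower on day 56. FBXW11, a beta-TrCP protein that recognises phosphorylated NF-kappa B inhibitors and beta-catenin, had 37.3, 45 and 52.9 CPM on day 0 (lowest, median and highest) and 29, 37 and 43.7 on day 56, a log2 fold change of -0.30 ± 0.032 (FDR 6.62e-17) with 40 of 42 steers lower. Its close relative BTRC also fell, by less (-0.06 ± 0.025, FDR 0.0186, lower in 26 of 42). FBXW7, which recognises cyclin E, MYC, NOTCH1 and MCL1, fell as well (-0.18 ± 0.031, FDR 1.1e-07, lower in 35 of 42). In the opposite direction, FBXW5, a receptor also known from CUL4 complexes, had 46.4, 64.2 and 102 CPM on day 0 and 65.4, 95.9 and 146 on day 56 (0.52 ± 0.047, FDR 2.43e-21, higher in 39 of 42). FBXW4 rose from a median of 34.4 to 45.3 CPM (0.36 ± 0.043, FDR 9.84e-14, higher in 39 of 42).

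Of the 17 FBXL genes, 9 were higher and 4 lower on day 56. FBXL6 rose in all 42 steers, from 11.9, 16 and 20.4 CPM to 16.8, 25.1 and 38.3 (0.63 ± 0.044, FDR 1.9e-31). FBXL15, known for acting on the ligase SMURF1, rose from 8.03, 10.7 and 14.6 to 10.5, 15.6 and 18.5 (0.53 ± 0.046, FDR 1.31e-22, higher in 41 of 42). SKP2, which recognises the cell cycle inhibitor CDKN1B, fell from a median of 11.6 to 9.73 CPM (-0.32 ± 0.048, FDR 5.92e-10).

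Of the 34 FBXO genes, 11 were higher and 13 lower on day 56. The members with the smallest p among those that fell were mostly in this family. FBXO38, known for directing the T cell checkpoint receptor PDCD1 to degradation, was lower in all 42 steers, with 55.7, 76.2 and 112 CPM on day 0 and 39.3, 52.9 and 76.4 on day 56 (log2 fold change -0.54 ± 0.036, FDR 9.16e-34). Its fall was already present on day 3 (-0.37 ± 0.036, FDR 3.73e-18, lower in 40 of 42). FBXO33 went from 27.7, 35.6 and 46.8 CPM to 15.3, 23.4 and 31.2 (-0.62 ± 0.047, FDR 9.41e-28, lower in 41 of 42). FBXO11, which targets BCL6, went from 33.3, 44.8 and 55.2 to 19.8, 31.1 and 47.7 (-0.52 ± 0.045, FDR 3.38e-23, lower in 40 of 42). FBXO3, which acts on FBXL2, went from a median of 34.4 to 25.7 (-0.42 ± 0.038, FDR 2.1e-21) and FBXO30 from a median of 17.4 to 11.4 (-0.60 ± 0.057, FDR 2.42e-20). FBXO28 fell from a median of 27.2 to 22.1 CPM (-0.31 ± 0.037, FDR 5.3e-14, lower in 39 of 42).

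The FBXO genes that rose with the smallest p were FBXO6, FBXO31, FBXO17 and FBXO2. FBXO6 binds N-glycans of misfolded glycoproteins. It had 17.7, 21.9 and 26.8 CPM on day 0 and 22.4, 30.5 and 40.6 on day 56, higher in all 42 steers (log2 fold change 0.46 ± 0.030, FDR 2.32e-34). FBXO31, which acts on cyclin D1 after DNA damage, had 66.9, 80.9 and 121 CPM on day 0 and 91.2, 114 and 167 on day 56, also higher in all 42 (0.47 ± 0.038, FDR 3.09e-25). FBXO17 went from a median of 3.92 to 5.63 CPM (0.54 ± 0.052, FDR 2.68e-19, higher in 38 of 42) and FBXO2, another glycan-binding protein, from 0.691 to 1.29 (0.74 ± 0.085, FDR 5.7e-15, higher in 37 of 42).

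A pair of FBXO genes are described here because of the size of their change, a choice made after their values were seen. FBXO44 had the largest rise past the FDR on day 56, from 0.153, 1.20 and 2.67 CPM to 0.840, 2.80 and 7.87 (log2 fold change 1.26 ± 0.16, FDR 1.12e-12, higher in 38 of 42 steers). FBXO5, the EMI1 inhibitor of the anaphase-promoting complex, fell from 3.75, 6.48 and 18.8 CPM to 2.96, 4.8 and 7.70 (-0.62 ± 0.083, FDR 1.75e-11, lower in 37 of 42).

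Most day 56 changes had the same sign in subsets of the steers. Of the 55 members past the FDR, 42 had the pooled sign in all 7 groups (76.4%, against 76.3% of the 12515 genes past the FDR), 51 in all 3 lanes (92.7% against 95.8%) and 49 in the NC steers (89.1% against 95.2%). In the 6 NC steers alone, 25 passed the FDR with that sign (45.5% against 40.7%). Of the members past the FDR on both days, 15 rose on days 3 and 56 (21.4% of the 70, against 18.5% of all genes), 20 fell on both (28.6% against 17.1%), 1 (SKP1) rose and then fell, and 0 fell on day 3 and rose on day 56.

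Blood cell markers moved over the same days, and in bulk blood fewer cells of a type and less RNA per cell cannot be told apart. On day 56, 12 of 14 T cell markers were higher and 1 lower, 6 of 8 B cell markers higher and 1 lower, 1 of 7 NK and cytotoxic markers higher and 6 lower, 1 of 10 neutrophil markers higher and 7 lower, and 0 of 7 monocyte markers higher and 6 lower. The summed CPM of the T cell markers rose from a median of 2636 (2008 to 3850) on day 0 to 3679 (2660 to 5046) on day 56, and that of the monocyte markers went from 2216 (1261 to 5320) to 1624 (912 to 2994). Erythroid markers were higher in 14 of 20 on day 3 and 4 of 20 on day 56, with summed medians of 2430 CPM on day 0, 6275 on day 3, then 35655 by day 21 and 3506 at day 56. Platelet markers were higher in 6 of 8 on day 3 and 1 of 8 on day 56. The erythroid marker CA1 had 0 counts in every library.

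With the erythroid, T cell, B cell, neutrophil and monocyte marker scores as covariates, 54 of the 55 members kept the pooled sign on day 56 (98.2%, against 94.6% of all genes past the FDR) and 43 passed the FDR with it (78.2% against 65.2%). FBXO38 (-0.35, FDR 6.28e-12), FBXO33 (-0.46, FDR 1.84e-11), CUL7 (0.29, FDR 8.23e-13), FBXO6 (0.38, FDR 1.36e-16) and FBXW5 (0.54, FDR 1.47e-13) were among these. For SKP1 the day 3 rise stayed (0.25, FDR 0.00361), while its day 56 value was -0.12 (FDR 0.323). CUL1 (0.049, against 0.082 without covariates, FDR 0.137) and CUL4A (0.042, against 0.049, FDR 0.245) did not pass in that fit.

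Genes that act on cullins were read from the same fit. Beside every list count below, 33.9% of all genes were higher and 31.8% lower on day 56, and 22.1% and 19.2% on day 3. NEDD8 is the modifier that activates cullins, and of 11 neddylation genes 2 were higher and 7 lower on day 56 (1 and 2 on day 3), with a median log2 fold change of -0.12. NEDD8 itself (0.29 ± 0.042) and its conjugating enzyme UBE2M (0.25 ± 0.036) rose, whereas DCUN1D1 (-0.59 ± 0.070), RNF7, the RING partner of CUL5 (-0.23 ± 0.051), DCUN1D5 (-0.17 ± 0.040) and DCUN1D3 (-1.33 ± 0.33) fell. The COP9 signalosome removes NEDD8, and 5 of its 10 subunits were higher and 2 lower (5 and 0 on day 3, median on day 56 0.16). COPS3 (0.29 ± 0.021), COPS7B (0.24 ± 0.020), COPS6 (0.38 ± 0.033) and COPS7A (0.26 ± 0.029) rose, COPS2 (-0.55 ± 0.074) fell, and the catalytic subunit COPS5 fell by little (-0.08 ± 0.031, FDR 0.0119).

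Of 5 exchange, inhibition and chaperone genes, 1 was higher and 2 lower on day 56 (1 and 1 on day 3). CAND1, which exchanges F-box modules on CUL1, fell (-0.19 ± 0.030), as did GLMN, an inhibitor of RBX1 (-0.21 ± 0.052), and CAND2 rose (0.19 ± 0.045). Of 18 adaptors and receptors of other cullins, 8 were higher and 7 lower on day 56 (4 and 7 on day 3). The elongins that link CUL2 and CUL5 to their receptors moved oppositely, ELOB upward (0.42 ± 0.051) and ELOC downward (-0.31 ± 0.042). The other receptors past the FDR with the smallest p were DCAF15 (0.47 ± 0.031), KLHL12 (0.18 ± 0.018) and KCTD10 (0.12 ± 0.022), which rose, and KBTBD2 (-0.44 ± 0.040), SPOPL (-0.76 ± 0.070) and ASB7 (-0.29 ± 0.034), which fell. Of 9 ubiquitin-conjugating and priming enzymes, 2 were higher and 4 lower (1 and 3 on day 3). CDC34, the main conjugating enzyme of SCF, rose (0.43 ± 0.035), as did UBE2L3 (0.10 ± 0.027), while UBE2D1 (-0.44 ± 0.049), UBE2D3 (-0.22 ± 0.030), UBE2G1 (-0.38 ± 0.066) and UBE2R2 (-0.16 ± 0.031) fell.

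Of 22 genes whose proteins are known SCF substrates, 7 were higher and 13 lower in mRNA on day 56 (3 and 11 on day 3), with a median log2 fold change of -0.24. Among all genes 33.9% were higher and 31.8% lower on day 56, with a median of 0.017. BCL6, the target of FBXO11, fell (-1.07 ± 0.081, FDR 1.94e-27), and so did MCL1 (-0.52 ± 0.036), IREB2, the iron regulatory protein recognised by FBXL5 (-0.67 ± 0.052), and CCNE1 (-0.52 ± 0.054). CRY2, a repressor of the circadian clock (0.25 ± 0.030), NFKBIB (0.25 ± 0.040), CCND1 (0.33 ± 0.058) and CCND2 (0.17 ± 0.031) rose. Proteins were not measured, and the lists are not independent of earlier results on these libraries.

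Some members moved opposite to a neighbouring gene, and counts estimated from transcript coverage can pass between adjoining genes. For 5 of the 69 members that could be placed in the RefSeq gene order, the gene with the lowest Spearman correlation out of 19055 was within 2 tested genes on the chromosome. The correlations across all libraries, given as a description, were -0.84 for FBXW2 with PSMD5, -0.64 for FBXO22 with LOC112443328, -0.59 for FBXL5 with LOC104968939, -0.58 for FBXO10 with TOMM5 and -0.49 for FBXO42 with LOC112443502. The libraries share steers, lanes and depth.

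FBXW2 is the clearest of these. Its CPM ranged from 8.04 to 64.1 and that of PSMD5, a chaperone of proteasome assembly, from 63 to 149, while their sum ranged only from 122 to 165. The coefficient of variation was 37.8% for FBXW2, 12.1% for PSMD5 and 5.04% for the sum. On day 56 FBXW2 was higher than on day 0 (0.49, FDR 1.54e-05) and PSMD5 lower (-0.15, FDR 3.0e-05), while the sum had a log2 fold change of -0.03 (FDR 0.0120). For FBXL5 the row was not past the FDR on day 56 (0.34, FDR 0.289), its neighbour fell (-1.17, FDR 1.4e-11) and the sum fell (-0.53, FDR 7.14e-18). For FBXO22 and FBXO10 neither the row (FDR 0.460 and 0.190) nor the sum (FDR 0.130 and 0.507) passed on day 56. For FBXO42 the row was at 0.54 (FDR 0.0507) and the sum fell (-0.16, FDR 4.33e-08).

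**Figure D3:**
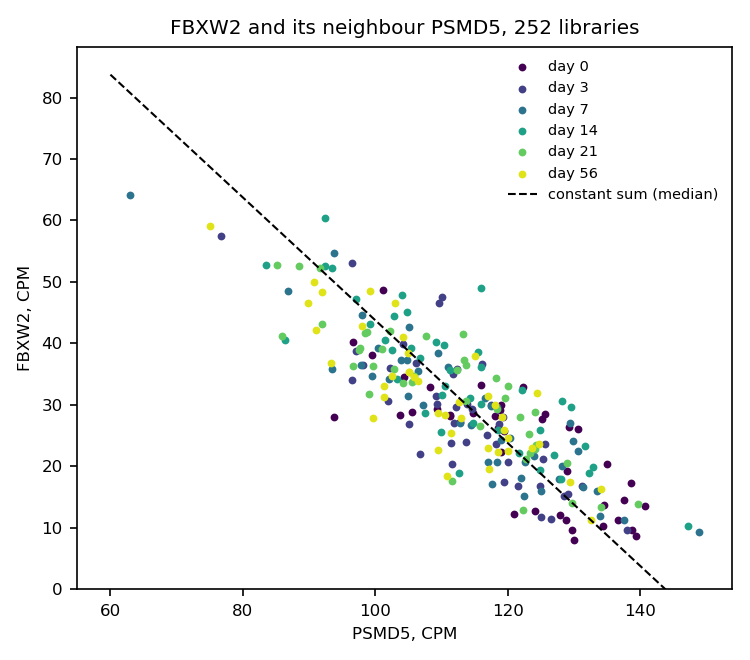
CPM of FBXW2 against CPM of its chromosomal neighbour PSMD5 in all libraries, coloured by day, with a dashed line where the sum of both equals its median. The libraries lie along the line, with FBXW2 between 8.04 and 64.1 CPM and PSMD5 between 63 and 149.

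For most members the share of variation between steers was larger than that between days. With 42 steers and 6 days, the steer share would be the larger even if neither had an effect. It also holds any difference between treatments, pens and lanes. The median share of the sum of squares of log2 CPM was 35% between steers and 15.7% between days for the 70 members, and 38.6% and 8.36% for all genes tested. The day share exceeded the steer share for 14 members (20%) and for 8.81% of all genes. The largest steer shares were 80.4% for FBXL16, 76.2% for FBXW8, 65.2% for FBXO17, 64.6% for FBXO16 and 62.6% for FBXL4. FBXW8, the partner of CUL7, had steer means from 16.8 to 37.1 CPM with a median of 26.6. The steer mean of FBXL16 ranged from 0.0620 to 4.59 CPM with a median of 1.02, and FBXO16 had 0 counts on all days in 1 steer. The smallest steer shares were 16.9% for FBXO42 and 15.8% for FBXO22, both among the genes that moved opposite to a neighbour. SKP1 had 42.2% between steers and 14.0% between days.

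Each antimicrobial was next compared with NC on the same day, 6 steers against 6, to ask whether metaphylaxis altered these genes. The 6 NC libraries of a day serve all 6 treatments, so calls in several treatments are not independent. On day 0, before administration, 0 members were called at an FDR of 0.1 in any treatment by edgeR's quasi-likelihood test, with between 1 and 4 members at an unadjusted p under 0.05 and at most 1 called by DESeq2. Over days 3 to 56, 14 members were called in at least 1 of 30 comparisons, against 16.7% of all genes, all of them on day 3 and in 4 treatments. On days 7 to 56 the test called 0 members, with between 0 and 21 at an unadjusted p under 0.05 and between 0 and 9 called by DESeq2 in a comparison. The 9 were in TILD on day 21, where DESeq2 called 2098 of all genes.

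Ceftiofur had the most calls. On day 3, 4 members were higher and 7 lower in CEFT than in NC, against 6% and 4.86% of all genes. At an unadjusted p under 0.05 there were 20, and DESeq2 called 15. FBXW5 had 79.9, 89.4 and 101 CPM in CEFT (lowest, median and highest of 6) and 56.6, 61.4 and 81 in NC (log2 fold change 0.47 ± 0.10, FDR 0.0454), so that 1 NC steer lay within the CEFT range. FBXO34 had 16.6, 17.5 and 18.4 against 20.4, 22.3 and 24.6 (-0.37 ± 0.088, FDR 0.0571), with no overlap. FBXW7 had 20.4, 23.5 and 24 against 26.9, 28.4 and 31.5 (-0.33 ± 0.080, FDR 0.0571), and again the groups did not overlap.

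FBXL6 (20.4, 23.5 and 28.1 CPM in CEFT, 14.6, 17.5 and 19.2 in NC, 0.45 ± 0.11, FDR 0.0579) and FBXW11 (34.8, 36.9 and 41 against 42.3, 44 and 46.5, -0.24 ± 0.071, FDR 0.0739) also had groups that did not overlap. FBXL15 was higher with medians of 14.2 and 11.5 CPM (0.32 ± 0.11, FDR 0.0998), and FBXO11 (30.3 against 41.5, -0.49 ± 0.16, FDR 0.0943) and FBXO9 (139 against 179, -0.34 ± 0.11, FDR 0.0901) were lower. FBXW2 was called higher (0.79 ± 0.23, FDR 0.0766), and its sum with PSMD5 was not (-0.02, FDR 0.868). FBXW9 was called lower on 0 to 3 counts in CEFT and 0 to 15 in NC. Before administration, on day 0, FBXO9 in CEFT already stood at -0.28 against NC, FBXW2 at 0.46, FBXL15 at 0.16 and FBXW5 at 0.13 (FDR between 0.913 and 0.920). For FBXO34, FBXW7, FBXL6, FBXW11 and FBXO11 the day 0 values lay between -0.03 and 0.05, and FBXW9 was at 0.75.

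Of SKP1, RBX1 and the 8 cullins, 1 gene (SKP1) was called in any of the 30 comparisons. On day 3 it had 100.4, 117 and 228 CPM in CEFT and 170, 212 and 278 in NC (-0.65 ± 0.20, FDR 0.0863). The 5 other CEFT steers were below all NC steers, and 1 CEFT steer lay within the NC range. The CEFT median of SKP1 was below the NC median on every day, 125 against 177 CPM on day 0 (-0.25, FDR 0.913), 137 against 240 on day 7 (-0.75, FDR 0.274) and 114 against 179 on day 56 (-0.64, FDR 0.359), and only day 3 passed the FDR. By the same quasi-likelihood test its unadjusted p was 0.0070 on day 3, 5.9e-04 on day 7 and 1.3e-04 on day 56. Over all treatments SKP1 had an unadjusted p under 0.05 in 14 of the 30 comparisons. It was higher than NC in ENRO on day 3 (0.53) and lower in the others, such as TULA on day 56 (-0.50). For RBX1 and the cullins the smallest FDR over the 30 comparisons was between 0.116 (CUL5) and 0.431 (CUL4A).

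The CEFT calls rested on few animals and cannot be told apart from lane 3. The number of members called was 0 without NC replicate 7 or 12, 1 without NC replicate 15, 2 without CEFT replicate 5, 3 without NC replicate 13 or CEFT replicate 6, 5 without NC replicate 1 or CEFT replicate 3 or 4, 6 without NC replicate 5, and 17 without CEFT replicate 8. It was 0 after ComBat_seq by lane, which can also remove a treatment difference between lanes, and 0 with lane as a term. Of the marker lists, erythroid genes had the largest median log2 fold change (-0.41), with sums of 540, 10687 and 63192 CPM in CEFT (lowest, median and highest) and 2963, 12847 and 61959 in NC on that day. Neutrophil markers summed to 3463, 4654 and 5089 CPM against 3491, 3915 and 4885, B cell markers to 969, 2226 and 2778 against 1181, 1465 and 2043, and their part in the result was not tested. Of the marker genes tested, only 1 T cell marker was called (lower). Among partners, 3 of 10 COP9 subunits and 1 each of the neddylation, other adaptor and conjugating enzyme lists were higher, 1 adaptor and 1 of the 5 exchange genes lower, and 1 of 22 substrates higher. Among all genes 6% were higher and 4.86% lower.

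**Figure D4:**
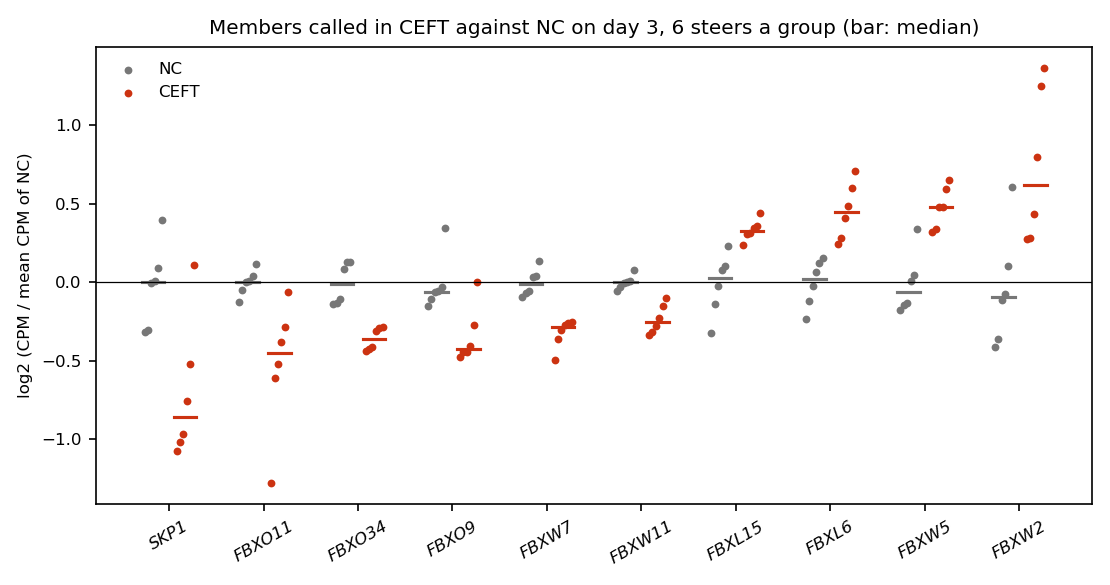
Log2 of CPM over the mean CPM of NC for 10 of the 11 members called in CEFT against NC on day 3, with a point for each of 6 CEFT and 6 NC steers and bars at the medians. FBXW9, the other member called, is left out because most of its libraries had 0 counts, and in SKP1 1 CEFT steer lies with the NC steers.

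The other day 3 calls were fewer. In ENRO 3 members were called, against 3.33% of all genes, with 13 at an unadjusted p under 0.05 and 9 by DESeq2, which called 1865 of all genes. FBXW7 had 21.2, 23.2 and 26.1 CPM against the same NC steers as above (-0.29 ± 0.071, FDR 0.0788), FBXO31 had 93.4, 104 and 129 against 75.9, 83.6 and 91.3 (0.34 ± 0.085, FDR 0.0788), and FBXW11 had 35.4, 38.9 and 39.6 (-0.21 ± 0.055, FDR 0.0901). None of these 3 overlapped with NC. The count was 0 without NC replicate 1, 7, 12, 13 or 15 or ENRO replicate 5, 6, 9 or 10, it was 1 without ENRO replicate 8 and 5 without NC replicate 5. Neutrophil markers summed to 5053, 5804 and 7215 CPM in ENRO and 3491, 3915 and 4885 in NC, which did not overlap, and their part in these calls was not tested.

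In FLOR 2 members were called on day 3, against 2.67% of all genes, with 14 at an unadjusted p under 0.05 and 10 by DESeq2, which called 1688 of all genes. FBXO5 had 2.55, 3.51 and 4.52 CPM in FLOR and 5.19, 7.20 and 8.64 in NC, with no overlap (-1.02 ± 0.19, FDR 0.0307). It was called in 12 of 12 fits that left out a steer and in 8 of 9 alternatives, the exception being the fit with lane as a term (-0.76, FDR 0.487). Before administration, on day 0, FBXO5 in FLOR already stood at -0.36 against NC. By the change from day 0 within steers, given further below, 0 members were called in FLOR on day 3. FBXW5 was higher, 70.6, 85.0 and 99.5 CPM (0.39 ± 0.10, FDR 0.0941). Its call made the count 1 rather than 2 without NC replicate 1, 7, 12, 13 or 15 or FLOR replicate 3, 6, 8 or 10.

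In OXYT 2 members were called on day 3, against 3% of all genes, with 10 at an unadjusted p under 0.05 and 6 by DESeq2, which called 1854 of all genes. FBXO5 was lower (3.48, 4.44 and 5.92 CPM, -0.62 ± 0.17, FDR 0.0946), with a log2 fold change of -0.55 (FDR 0.761) before administration. FBXO39 was called higher on 4 to 10 counts in OXYT and 0 to 5 in NC. The OXYT count was 0 without NC replicate 7, 12, 13 or 15 or OXYT replicate 2, 4, 5, 6 or 9, it was 1 without NC replicate 1 and 4 without NC replicate 5. In TILD and TULA 0 members were called on day 3, with 13 and 5 at an unadjusted p under 0.05 and 7 and 1 by DESeq2. Of all genes DESeq2 called 1798 in TILD and 235 in TULA.

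Averaged over all 6 days by limma voom with the steer as a random block, 6 calls were made at an FDR of 0.05, all lower than NC. In CEFT 2 members were called, against 3.42% of all genes. SKP1 steer means were 107, 132 and 190 CPM (lowest, median and highest) in CEFT and 168, 213 and 234 in NC (-0.58 ± 0.15, FDR 0.0160), and FBXO9 steer means were 129.8, 148 and 183 against 168, 183 and 266 (-0.36 ± 0.083, FDR 0.00605). Since day 0 enters this mean, the values before administration, -0.28 for FBXO9 and -0.25 for SKP1 (both FDR 0.913), are part of it. In TILD 3 were called, against 4.98% of all genes. FBXO3, with steer means of 23.9 to 28.6 CPM in TILD and 30.3 to 33.3 in NC, did not overlap (-0.28 ± 0.086, FDR 0.0374), and FBXO9 (-0.29 ± 0.083, FDR 0.0207) and FBXL4, a mitochondrial F-box protein (-0.27 ± 0.078, FDR 0.0252), did.

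In OXYT 1 member was called, against 0.666% of all genes. It was FBXL16 (-1.51 ± 0.39, FDR 0.0271), with steer means of 0.0620, 0.915 and 1.55 CPM in OXYT and 0.629, 1.26 and 1.96 in NC. In ENRO, FLOR and TULA 0 members were called by limma, with 6, 4 and 2 at an unadjusted p under 0.05. No other tool was run for this effect. After ComBat_seq by lane 0 of the 6 calls passed. CEFT, OXYT and TILD shared no lane with NC, so this correction can also remove a treatment difference and cannot decide between lane and treatment. RBX1 and the 8 cullins had no call in any treatment, the nearest being CUL2 in CEFT (-0.19 ± 0.066, FDR 0.0718) and in TILD (-0.18 ± 0.068, FDR 0.0907).

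The change from day 0 within steers removes differences that were there before administration, and it was compared between each treatment and NC. By the F test over all 30 coefficients, 29 of 70 members passed an FDR of 0.05, against 31% of all genes. Single coefficients were called at an FDR of 0.1 for 26 members, against 20% of all genes with at least 1 called, in 5 of the 30 comparisons. RBX1 (FDR 2.15e-04), CUL1 (FDR 0.00277), CUL2 (FDR 0.0226), CUL3 (FDR 0.00558) and CUL5 (FDR 0.00264) passed the F test, while SKP1 (FDR 0.128), CUL4A, CUL4B, CUL7 and CUL9 (FDR between 0.0557 and 0.142) did not.

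Enrofloxacin on day 7 had the most calls, 6 higher and 5 lower, against 5.26% and 6.08% of all genes. FBXL15 changed from day 0 by -0.75 to 0.052 log2 CPM in the 6 ENRO steers and by 0.10 to 0.57 in NC, with no overlap (difference -0.63 ± 0.16, FDR 0.0109). Against NC it stood at 0.26 on day 0 and at -0.37 on day 7 (FDR 0.259). FBXO5 changed by a median of 0.15 in ENRO and -0.64 in NC (0.96 ± 0.29, FDR 0.0290), with 4 of 6 ENRO steers rising and 5 of 6 NC steers falling. Against NC, FBXO5 in ENRO stood at -0.63 on day 0 and at 0.33 on day 7 (FDR 0.363), so most of the 0.96 was a difference before administration. RBX1 fell in 4 of 6 ENRO steers and rose in 5 of 6 NC steers (-0.29 ± 0.088, FDR 0.0342). FBXW5 (-0.49 ± 0.16, FDR 0.0409) and FBXW4 (-0.48 ± 0.16, FDR 0.0426) were lower in ENRO.

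The members that were higher in ENRO by this measure were, beside FBXO5, FBXO21 (0.33 ± 0.11, FDR 0.0436), FBXW11 (0.31 ± 0.10, FDR 0.0496), SKP2 (0.47 ± 0.16, FDR 0.0601), CUL4A (0.23 ± 0.081, FDR 0.0655) and FBXW7 (0.29 ± 0.10, FDR 0.0672). SKP2 likewise stood at -0.34 against NC on day 0 and at 0.13 on day 7 (FDR 0.590). FBXW7 rose in all 6 ENRO steers, by 0.089 to 0.79, and changed by -0.098 to 0.088 in NC, with no overlap. FBXW2 was called lower (-1.04 ± 0.40, FDR 0.0907), and its sum with PSMD5 was not (0.016, FDR 0.882).

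In the ENRO steers the neutrophil markers summed to 4856, 5360 and 7367 CPM on day 0 and 3010, 3560 and 3879 on day 7, which did not overlap, while in NC they summed to 3464, 4505 and 8385 on day 0 and 3310, 4253 and 7508 on day 7. Of the neutrophil markers 2 of 10 were called lower by the same measure, as were 1 of 20 erythroid, 1 of 8 B cell and 1 of 8 platelet markers, and their part in the result was not tested. In a fit of the 12 ENRO and NC steers, 10 members were called, and the number was 0 without ENRO replicate 2, 4 without ENRO replicate 5 or NC replicate 5, 6 without ENRO replicate 10, and 7 without NC replicate 7 or 13. Of the partners, 3 of 9 conjugating enzymes, 1 of 10 COP9 subunits and 1 of 11 neddylation genes were lower, 2 of 18 adaptors higher and 1 lower, 0 of 5 exchange genes called, and 1 of 22 substrates higher and 2 lower. Among all genes 5.26% were higher and 6.08% lower.

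**Figure D5:**
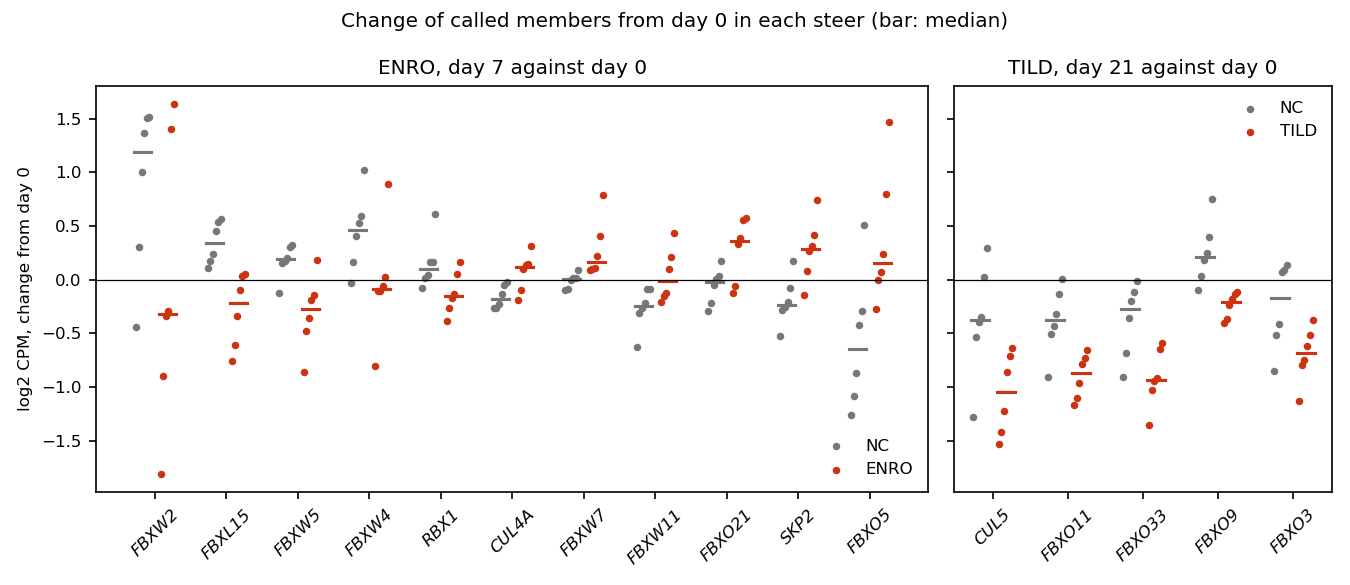
Change in log2 CPM from day 0 in each of 6 steers a group, for the 11 members called in ENRO on day 7 (left) and 5 of those called in TILD on day 21 (right), NC in grey, treatment in red, bars at the medians. FBXL15 and FBXW7 on the left and FBXO9 on the right are those whose groups do not overlap.

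Tildipirosin on day 21 had 6 calls, all lower, against 3.64% of all genes. Each of the 6 genes fell in all 6 TILD steers. In NC, FBXO33 fell in 6 of 6 steers, FBXO11 in 5, CUL5 in 4, FBXO3 in 3 and FBXO9 in 1. FBXO9 changed by -0.41 to -0.11 log2 CPM in TILD and by -0.095 to 0.75 in NC, with no overlap (-0.49 ± 0.13, FDR 0.0494). Others were FBXO11 (-0.53 ± 0.15, FDR 0.0641), FBXO3 (-0.46 ± 0.14, FDR 0.0710), FBXO33 (-0.53 ± 0.16, FDR 0.0808) and CUL5 (-0.73 ± 0.23, FDR 0.0808), whose groups overlapped. FBXO11, FBXO33, FBXO3 and CUL5 were also among the members that fell over time in the fit of all 42 steers. On day 21 they were lower than on day 0 in 41, 42, 39 and 38 of the 42.

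The TILD count depended on the steers in the fit. It was 1 in a fit of the 12 TILD and NC steers, and 0 when NC replicate 7, 12, 13 or 15 or TILD replicate 2, 7, 8 or 10 was also left out, 2 without NC replicate 5, 3 without TILD replicate 3, 14 without NC replicate 1 and 20 without TILD replicate 5. Erythroid markers summed to a median of 553 CPM in TILD and 8851 in NC on day 0 and to 13116 and 67840 on day 21, with 0 of 20 called, and their part in the result was not tested. Of the partners 1 COP9 subunit was higher, and 1 each of the neddylation, COP9, exchange and adaptor lists and 1 of 22 substrates were lower. Among all genes 3.64% were called in either direction.

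The 3 remaining comparisons had 10 calls. In OXYT on day 56, 5 were called against 2.59% of all genes. FBXO34 fell by 0.40 to 0.79 in the 6 OXYT steers and changed by -0.38 to 0.060 in NC, with no overlap (-0.50 ± 0.12, FDR 0.0218). FBXO25 (0.33 ± 0.076, FDR 0.0132), FBXW12 (0.44 ± 0.12, FDR 0.0401) and FBXL18 (0.36 ± 0.11, FDR 0.0705) rose in all 6 OXYT steers, and CUL1 was lower (-0.24 ± 0.072, FDR 0.0719). In NC, FBXO25 rose in 1 of 6 steers, FBXW12 in 3 and FBXL18 in 4. On day 0 FBXW12 in OXYT stood at -0.21 against NC and FBXL18 at -0.16, which is part of their differences. In a fit of the 12 OXYT and NC steers the count was 4, not all of them among the 5 above. FBXL18 (FDR 0.107) and CUL1 (FDR 0.105) were not called there, and CUL1 was called in 0 of the fits that left out a steer. The count was 0 without NC replicate 1 or 5 or OXYT replicate 4, 5 or 9, and it was 2 without OXYT replicate 6.

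In CEFT on day 3, 4 were called against 3.29% of all genes. FBXO36 rose in all 6 CEFT steers, by 0.43 to 1.51, and changed by -1.18 to 0.19 in NC, with no overlap (1.13 ± 0.38, FDR 0.0982). Against NC, FBXO36 in CEFT stood at -0.53 on day 0 and at 0.55 on day 3 (FDR 0.259), so part of the 1.13 was a difference before administration. Its median over all libraries was 0.659 CPM. FBXO7, which is known for its ties to parkin and the proteasome, was higher (0.31 ± 0.098, FDR 0.0875). It stood at -0.15 against NC on day 0 and at 0.14 on day 3 (FDR 0.340). FBXO11 (-0.51 ± 0.15, FDR 0.0748) and CUL3 (-0.31 ± 0.099, FDR 0.0928) were lower and fell in all 6 CEFT steers, against 4 and 3 of 6 NC steers. None of these 4 was called in a fit of the 12 CEFT and NC steers, where leaving out NC replicate 1 gave 6 calls, CEFT replicate 8 gave 5, CEFT replicate 10 gave 1 and each of the other 9 gave 0.

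In TULA on day 14, 1 was called against 0.178% of all genes. FBXL16 (1.72 ± 0.43, FDR 0.0628) was at 24.2 CPM in TULA replicate 6 on day 14, and between 0.420 and 0.961 in the same steer on the other 5 days. In the 12 TULA and NC steers alone the FDR was 0.773, and it was not called when any steer was left out. The lowest log2 fold change in these fits was 0.051, in the fit without that steer.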

How the data were processed

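Whole-blood mRNA was sequenced from 42 steers on 6 days (1 library each). Per the labels and the submitters' notes, reads were checked with FastQC 0.11.9, trimmed with Trimmomatic 0.39, aligned with HISAT2 2.1.1 to the bovine assembly ARS-UCD1.3 and assembled with StringTie 2.2.0, and edgeR 3.36.0 was used. The counts deposited by the authors are whole numbers per gene, estimated from transcript coverage, so reads over overlapping genes can be assigned to either, and depth enters as total counts (26073640 to 74110289).

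The 19056 genes that exceeded a CPM of 0.2 in 12 or more libraries were TMM scaled and tested with edgeR 4.0.16 (quasi-likelihood) in R 4.3.3, adjusted by Benjamini-Hochberg over all of them. The steer was a block for the day effect (FDR 0.05) and for the change from day 0 against NC (FDR 0.1). Each treatment was tested against NC by day (FDR 0.1), and over all days with limma 3.58.1 voom and a steer correlation (FDR 0.05). Standard errors were taken from the fold change and its F. Libraries of a steer deviated together (median correlation 0.342, against -0.0820 between steers, above 0.1 in 42 of 42 steers), and steers are named in the labels. The p-values of a treatment against NC on a day measure the spread between steers. Those of the day effect and of the change from day 0 measure the spread left within steers after the block.

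Alternatives used DESeq2 1.42.0, ComBat_seq of sva 3.50.0, lane terms, other scalings and filters, and left-out steers. The fits were tested on simulated data. The members, gene lists and comparisons were chosen with earlier results of these data known. Named genes were SKP1, RBX1, the cullins, the 10 members of smallest p in each direction on day 56, up to 10 called members per treatment comparison, the 5 largest and 2 smallest steer shares, the filter edge, and up to 4 called genes per partner list and direction. Gene neighbours came from the RefSeq order of assembly ARS-UCD2.0, with no coordinates used. A member that the rule names is not reported here, beyond its place in the counts.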

Additional observations from a re-analysis of the deposited data

Results flagged for a closer look

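Of 48 groups of 6 steers behind the day 3 calls and the group comparisons, 4 held a steer far from the other 5 (Dixon's test). Chance gives about 1 in 20 for independent groups of continuous values. Here the NC steers enter more than once for a gene called in several treatments. On day 3 the highest CEFT value of SKP1 was 228 CPM, the next being 147.5, and the highest NC value of FBXO9 was 237 CPM, the next being 183. The highest CEFT value of FBXW9 was 0.0959 CPM and the highest NC value of FBXO39 was 0.102 CPM, with the next at 0 in both. With all other steers at 0, the outcome of Dixon's test was fixed in both groups.

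The change from day 0 differed between a treatment and NC, by edgeR's quasi-likelihood test of the difference itself, for 27 pairs of gene and comparison, of which 26 are given. On day 3 in CEFT the differences on the log2 scale were -0.51 for FBXO11, 0.31 for FBXO7, -0.31 for CUL3 and 1.13 for FBXO36. On day 7 in ENRO they were -0.63 for FBXL15, 0.96 for FBXO5, -0.29 for RBX1, -0.49 for FBXW5, -0.48 for FBXW4, 0.33 for FBXO21, 0.31 for FBXW11, 0.47 for SKP2, 0.23 for CUL4A, 0.29 for FBXW7 and -1.04 for FBXW2.

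On day 56 in OXYT they were 0.33 for FBXO25, -0.50 for FBXO34, 0.44 for FBXW12, 0.36 for FBXL18 and -0.24 for CUL1. On day 21 in TILD they were -0.49 for FBXO9, -0.53 for FBXO11, -0.46 for FBXO3, -0.53 for FBXO33 and -0.73 for CUL5. On day 14 in TULA the difference was 1.72 for FBXL16, with 1 library of TULA replicate 6 at 24.2 CPM.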

How the results depend on the processing

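Without the replicate block 59 members changed by day (62 with it), 17 were lower and 12 higher on day 3 (20 and 17 with it), and 24 and 28 on day 56 (25 and 30). In NC alone 25 members changed, with 0 lower and 0 higher on day 3 and 15 and 12 on day 56. On day 3, lane 1 alone gave 1 lower and 2 higher and lane 2 alone 12 and 11. On day 56, CEFT alone gave 12 lower and 14 higher, and the higher counts were 16 in ENRO, 12 in FLOR, 11 in TILD and 11 in TULA.

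The number of members called against NC (14) was 4 after ComBat_seq by lane, 2 with a likelihood ratio test as well, 6 with lane as a term, 3 with no filter, 9 with estimateDisp dispersions and 32 by DESeq2, and these need not be among the 14. No share of all genes is given for these alternative totals. ComBat_seq was given no treatment term, so where a group shared no lane with NC it can also remove a treatment difference. On day 3 in CEFT (11) ComBat_seq gave 0 with either test, lane as a term 0, the likelihood ratio test 5, no filter 2 and estimateDisp 7. In ENRO (3) ComBat_seq with a likelihood ratio test gave 0, lane as a term 5, the likelihood ratio test 0, DESeq2 9 and no filter 0. In FLOR (2) ComBat_seq gave 1 with either test, lane as a term 0, DESeq2 10, no filter 1 and estimateDisp 1. In OXYT (2) ComBat_seq gave 0, and 1 with a likelihood ratio test, lane as a term 0, the likelihood ratio test 1, DESeq2 6, no filter 0 and estimateDisp 0. Leaving out a steer gave 0 to 17 in CEFT, 0 to 5 in ENRO, 1 to 3 in FLOR and 0 to 4 in OXYT on day 3, and 0 to 0 in CEFT on day 14.

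For the group effect, no replicate block gave 27 members in CEFT and 25 in TILD, 10 in ENRO and 8 in FLOR, and 7 in TULA and 4 in OXYT, ComBat_seq 0 in CEFT, OXYT and TILD, days 3 to 56 alone 4, 0 and 5, and no filter 8 in CEFT and 13 in TILD. For the change from day 0 (26 members), ComBat_seq gave 17, no filter 16 and no replicate block 2. In CEFT on day 3 (4) ComBat_seq, no filter, no block and 12 steers alone each gave 0. In ENRO on day 7 (11) no block gave 1. In OXYT on day 56 (5) no filter gave 3 and no block 0. In TILD on day 21 (6) ComBat_seq gave 0, no filter 3, no block 0 and 12 steers alone 1. In TULA on day 14 (1) 12 steers alone gave 0. Leaving out a steer gave 0 to 6, 0 to 15, 0 to 5, 0 to 20 and 0 to 0.

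Signs turned in 17 cases. On day 56 they were CUL1 in lane 3 (-0.011), CUL4A in lane 3 (-0.026) and NC (-0.032), FBXL14 with marker covariates (-0.0054) and in NC (-0.038), FBXL18 in NC (-0.067), FBXO25 in lane 1 (-0.015) and NC (-0.075), FBXO4 in lane 3 (0.012), FBXW12 in NC (-0.055), SKP1 in NC (0.19) and FBXW2 summed with PSMD5 (-0.032). That sum also turned FBXW2 in CEFT on day 3 (-0.021) and in the ENRO day 7 change (0.016). Lane as a term turned FBXW9 (0.59) and FBXL15 (-0.0027) in CEFT and FBXO39 in OXYT (-1.65) on day 3. The cause was not tested. The within-group, 12-steer, estimateDisp and neighbour-sum alternatives were chosen after seeing the data. Depth limits FBXW9, FBXO39 and FBXO16, with few counts per library.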

Other observations

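FBXO40, an F-box gene known from striated muscle, was chosen here after its values were seen. It had 0 counts in 218 libraries and was above 1 CPM in 7. These were TILD replicate 2 on day 0 (12.8 CPM), FLOR replicate 3 on day 56 (10.6), TULA replicate 7 on day 7 (8.50) and day 14 (1.62), FLOR replicate 8 on day 56 (3.47), NC replicate 5 on day 0 (3.19) and TULA replicate 8 on day 3 (2.63). The libraries came from 4 groups and 5 of the 6 days, with no sampling day shared by more than 2 of them.

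FBXL8, also chosen after its values were seen, was above 1 CPM in 2 libraries, both of TILD replicate 3 (3.29 CPM on day 21 and 1.51 on day 56). Its median over all libraries was 0.122 CPM, and the same steer had 0.905 CPM on day 0.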
